A study of Mus musculus with 6 samples.

Results

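Autophagy encloses cytoplasm, protein aggregates or whole organelles in a double membrane and delivers them to the lysosome. The ULK kinase complex starts the process, the class III PI3K complex and the ATG9, ATG2 and WIPI proteins build the membrane, the conjugation enzymes attach ATG8 proteins to it, and receptors tie the cargo to the ATG8 proteins. Maturing red blood cells use the same machinery to remove their mitochondria, a form of autophagy called mitophagy, in which BNIP3L (NIX) on the outer mitochondrial membrane is the best known receptor.

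A list of 35 genes of autophagy and mitophagy was followed here, of 48709 genes in the table. The genes were listed by their function, and they comprised 5 genes of the ULK complex, 4 of the class III PI3K complex, 5 for ATG9, ATG2 and WIPI proteins, 10 conjugation genes, 5 ATG8 genes, 4 receptors and 2 transcription factors. Of these, 34 passed the filter on low counts and were among the 12722 genes tested. The remaining member, Atg4c, which encodes a protease that trims ATG8 proteins, was listed at 0 counts in all 6 libraries. A 0 in this table was not read as absence, because 8440 of the 21695 protein-coding genes were at 0 in every library, among them Hexa, which encodes a lysosomal enzyme that most cells use, while 634 had a single count in all.

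The cells were mouse G1E-ER4, whose poly(A) RNA was sequenced. They are an erythroid progenitor line that lacks its own GATA1 and carries GATA1 fused to the hormone-binding domain of the estradiol receptor, so that tamoxifen starts erythroid differentiation. The 3 libraries of each group came from cells given either CHD4-APR, a Tat-linked peptide made to take the chromatin remodeller CHD4 out of its complexes, or CTRL, a Tat-linked run of alanines, each at 10 μM. Tamoxifen followed after 2 h, and RNA was collected 28 h later, 30 h in all. The comparison asked how gene expression during erythroid differentiation differed between the peptides. Every library therefore had the fusion protein, tamoxifen, Kit ligand and erythropoietin, and no library in the comparison came from cells without tamoxifen or without peptide. Tamoxifen was at 100 nM in the description of the culture and at 100 μM in that of the experiment. All samples were of a single cell line, and the labels did not say whether replicates were separate cultures, so that p-values measure only the spread between these libraries, which may be technical.

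Total counts lay between 41687482 and 49784177 per library, and TMM factors between 0.968 and 1.02. All 12 erythroid markers were detected, with a summed level of 71200 to 76520 normalised CPM, counts scaled to a common library size, in CTRL and 60680 to 64760 in CHD4-APR. They did not move together: Hba-a1, Hba-a2, Hbb-bs, Hbb-bt and Klf1 were lower in every CHD4-APR than in every CTRL library, Gata1, Epb42, Tfrc and Slc4a1 were higher in every one, and Alas2 and Epor overlapped. Hbb-bs, the most abundant, was at 23760 to 26410 CPM in CTRL and 19020 to 20960 in CHD4-APR, and Gata1 at 1509 to 1690 and 1833 to 1900. Because the line lacks its own GATA1 and carries the fusion, Gata1 counts may come from the introduced construct. How much of them did was not tested. The part of the erythroid markers in the results below was not tested either. Of 6 markers each, 3 for megakaryocytes, 2 for macrophages, 1 for lymphocytes and 0 for granulocytes passed the filter, and Gp1bb, Ppbp, Vwf, Adgre1, C1qa, Marco, Mrc1, Cd3e, Cd8a, Ms4a1, Ly6g, Mpo, S100a8 and S100a9 were listed at 0. Megakaryocyte markers summed to 46.7 to 48.8 CPM in CTRL and 39.9 to 45.7 in CHD4-APR, macrophage markers to 8.36 to 9.75 and 6.76 to 8.16, lymphocyte markers to 0.324 to 0.614 and 0.328 to 0.604, and granulocyte markers to 0.189 to 0.385 and 0.0936 to 0.201. In bulk RNA, fewer cells of a type and less RNA per cell cannot be told apart.

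Promoters of 28 of the 35 members, 33 promoters in all, were found in RefSeq on GRCm38.p6, each reaching from 250 bases before to 50 after the start site. They were searched on both strands for CACGTG, an E-box that is the core of the element bound by TFEB, for AGATAA or TGATAA, bound by GATA factors, and for GTAAACA, bound by FOXO factors. The E-box was in 14.3% of the member genes, Atg3, Atg5, Atg7 and Atg14, and in 8.09% of 27025 genes with a promoter. A GATA motif was in 7.14% of the member genes, Atg4a and Atg4d, and in 21% of all genes, while the FOXO motif was in 0 of the 28 and in 4.05% of all genes. Member promoters had a median GC content of 60.0% against 52.7% for all promoters, and its part in these shares was not tested. Below are the promoter of Atg3, which held the E-box 94 and 71 bases before the start site, and that of Atg4d, which alone of the 9 called members with a promoter held any of these motifs, with AGATAA 107 bases before the start site. Capitals mark the motifs. The Atg3 promoter lies at chr16:45158579-45158878 on the + strand and the Atg4d promoter at chr9:21265035-21265334 on the + strand.
Atg3: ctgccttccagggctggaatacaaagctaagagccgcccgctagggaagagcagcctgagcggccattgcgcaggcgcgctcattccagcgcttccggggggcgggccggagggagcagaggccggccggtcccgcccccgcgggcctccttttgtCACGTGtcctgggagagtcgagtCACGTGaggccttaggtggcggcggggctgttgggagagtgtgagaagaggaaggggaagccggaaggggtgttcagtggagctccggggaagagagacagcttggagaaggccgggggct
Atg4d: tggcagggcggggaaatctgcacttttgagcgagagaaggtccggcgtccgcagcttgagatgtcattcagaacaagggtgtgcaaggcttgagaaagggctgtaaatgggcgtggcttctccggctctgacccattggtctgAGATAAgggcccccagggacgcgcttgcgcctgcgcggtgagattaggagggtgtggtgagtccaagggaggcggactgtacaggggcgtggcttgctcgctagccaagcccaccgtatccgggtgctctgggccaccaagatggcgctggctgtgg

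With the CHD4-APR peptide, 7 autophagy genes rose and 4 fell, all by less than 1.5-fold. Rb1cc1, Ulk2, Atg2b, Atg9a, Nbr1, Bnip3l and Foxo3 rose, and Atg101, Atg4d, Gabarap and Map1lc3b fell (edgeR quasi-likelihood test, Benjamini-Hochberg adjusted p, the FDR, under 0.05). These 11 of 34 are 32.4% of the members tested, and 38.3% of all genes tested passed the same threshold, 20.4% in the higher and 17.8% in the lower direction. The 23 other members tested did not pass it. On GRCm38, the genes that rose lie at chr1:6206197-6276648 (Rb1cc1, + strand), chr11:61775649-61855073 (Ulk2, - strand), chr12:105616136-105685211 (Atg2b, - strand), chr1:75180860-75192196 (Atg9a, - strand), chr11:101552149-101581951 (Nbr1, + strand), chr14:66985239-67008877 (Bnip3l, - strand) and chr10:42181841-42276755 (Foxo3, - strand). Those that fell, all on the + strand, lie at chr15:101284272-101290945 (Atg101), chr9:21265293-21277772 (Atg4d), chr11:69991143-69994951 (Gabarap) and chr8:121590361-121598760 (Map1lc3b). At FDR under 0.05 and a change of at least 1.5-fold, 0 members were called, against 4.23% of all genes. In 18 members, 10 higher and 8 lower, the 3 libraries of a group did not overlap with the 3 of the other, as in 49.9% of all genes. The median log2 fold change of CHD4-APR over CTRL was -0.02 among the members and -0.01 among all genes tested, and the members ranged from -0.29 in Atg101 to 0.48 in Rb1cc1.

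**Figure D1:**
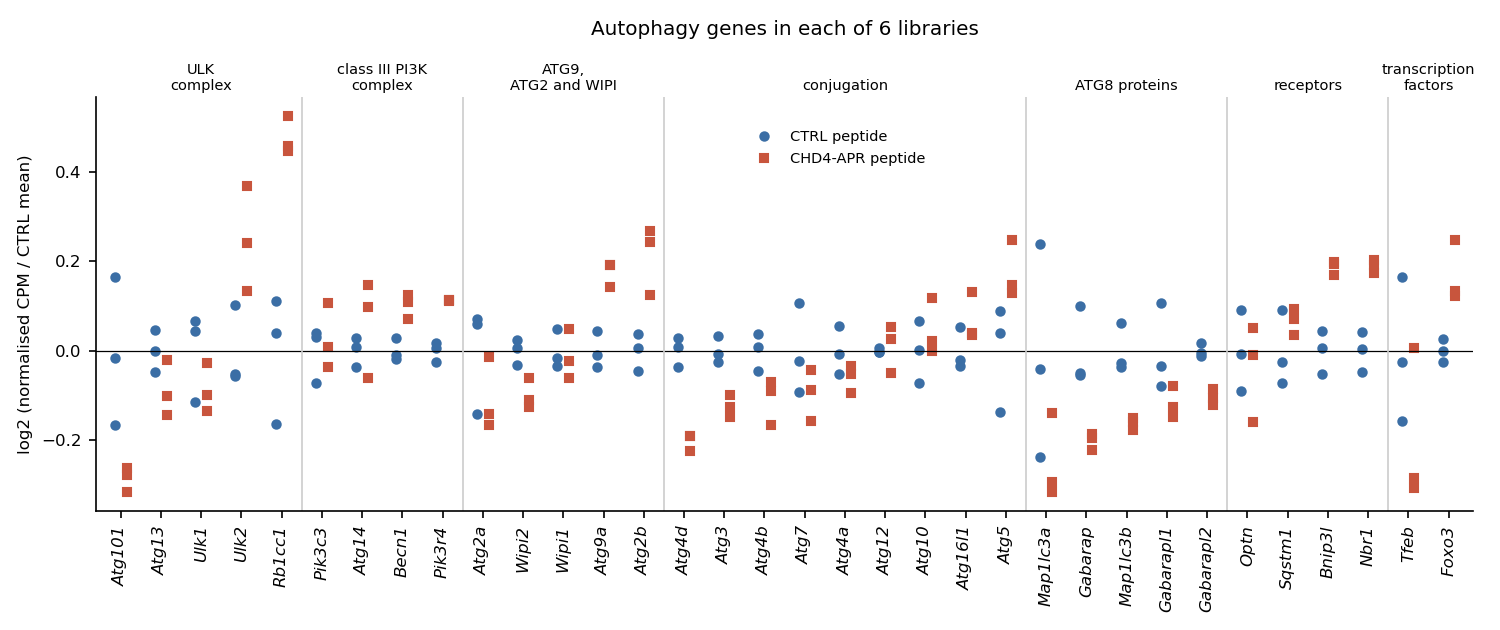
Level of each of the 34 autophagy genes tested in each of the 6 libraries, as the log2 ratio of its normalised CPM to the mean of the 3 CTRL libraries (circles, CTRL; squares, CHD4-APR), grouped by step. Rb1cc1 lies highest in all 3 CHD4-APR libraries, and Atg101, Gabarap, Map1lc3b and Atg4d lie below their CTRL libraries.

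Log2 fold changes moved with transcript length and GC content. Across the 34 members, Pearson's r between log2 fold change and log2 exonic length was 0.46 (Spearman's rho 0.36), and between log2 fold change and GC content -0.52 (rho -0.46). The same values over 12677 genes were 0.31 (rho 0.41) and -0.40 (rho -0.46). These are correlations across genes of the same 6 libraries, which are not independent replicates, and are given as descriptions. In 10 equal bins of all genes tested, the median log2 fold change was 0.22 for the longest genes and -0.18 for the shortest, and 0.25 for the genes lowest in GC and -0.16 for those highest in GC. Members were longer than the genes tested in general, with a median exonic length of 5716 against 3688 bases, and close to them in GC content, with 50.7% against 49.6%. Every member was therefore also fitted with length and GC offsets, which removed a smooth trend of each library on both properties, and where this ends a call the corrected value is given beside it.

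**Figure D2:**
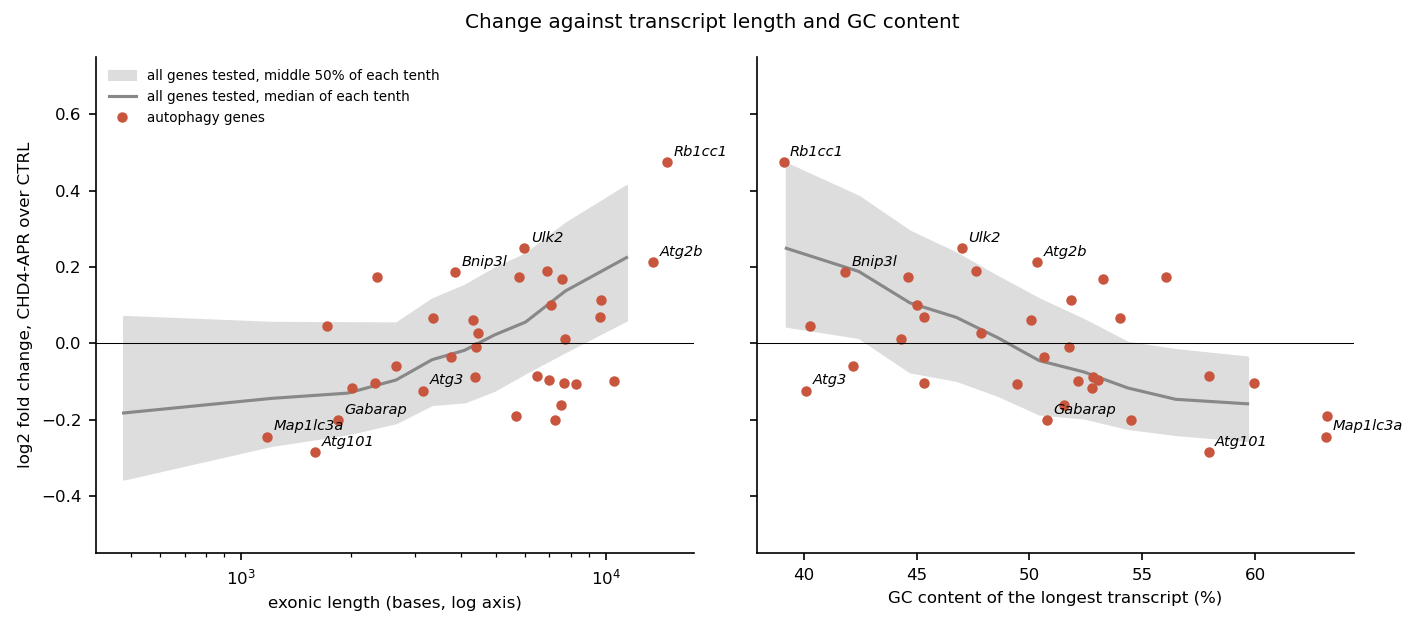
Log2 fold change of CHD4-APR over CTRL against exonic length in bases (left, log axis) and GC content of the longest transcript in percent (right), with points for the 34 autophagy genes and, for all genes tested, the median (line) and middle 50% (band) of each of 10 equal bins. Rb1cc1, at 14690 bases and 39.1% GC, lies at the long and GC-poor end, and Atg101, at 1597 bases and 58.0% GC, toward the other.

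Within the ULK complex, the scaffold subunit rose and a small regulatory subunit fell. Of its 5 genes, 3 were called (60%), 2 higher and 1 lower, against 38.3% of all genes tested, 20.4% higher and 17.8% lower. Rb1cc1, which encodes the scaffold FIP200, had 73.0, 88.3 and 84.0 CPM in the CTRL and 118, 112 and 111 CPM in the CHD4-APR libraries. Atg101, whose product holds ATG13 in the complex, had 23.2, 20.4 and 18.4 CPM with CTRL and 16.6, 17.0 and 17.2 with CHD4-APR. In both genes every CHD4-APR library lay outside the range of the CTRL libraries, above it for Rb1cc1 and below it for Atg101. Rb1cc1 was 1.39-fold higher, with a log2 fold change of 0.48 ± 0.06 (SE, n = 3 per group) and an edgeR FDR of 1.8e-05, and Atg101 was lower by -0.29 ± 0.08 on the log2 scale (FDR 0.0096). After the length and GC correction neither was called: Rb1cc1 was at 0.05 (FDR 0.44) and Atg101 at -0.10 (FDR 0.32). The kit named in the labels does not keep strand, and 3.80% of the exonic bases of Rb1cc1 are shared with 4732440D04Rik on the opposite strand, which was higher too, by 0.38 (FDR 0.016).

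Ulk1 and Ulk2 encode the kinases of the complex. Ulk1 had 115, 102 and 114 CPM with CTRL and 108, 100.4 and 103 CPM with CHD4-APR, and the groups overlapped. Ulk2 had 15.4, 17.2 and 15.4 CPM with CTRL and 17.5, 18.9 and 20.6 CPM with CHD4-APR, every CHD4-APR library above every CTRL library. Ulk2 rose by 0.25 ± 0.08 on the log2 scale (edgeR FDR 0.018), a call that was lost without CTRL replicate 3 (FDR 0.078), without CHD4-APR replicate 3 (FDR 0.096) and after the length and GC correction (0.14, FDR 0.18). Ulk1 was at -0.09 ± 0.05 (FDR 0.22) and passed the threshold without CTRL replicate 2 (-0.14, FDR 0.032). After the length and GC correction Ulk1 was at -0.05 (FDR 0.42). Atg13, the subunit that carries signals from mTORC1 to the kinase, was at -0.09 (FDR 0.18). The log2 ratio of Ulk1 to Ulk2 within a library was 2.78 ± 0.19 (SD, n = 3) with CTRL and 2.45 ± 0.16 with CHD4-APR, a difference of -0.33 (two-sided exact permutation test, p = 0.2, adjusted over 7 pairs of paralogs 0.28). With 3 libraries against 3 the smallest p this test can give is 0.1.

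The class III PI3K complex makes the lipid that marks the growing membrane, and 0 of its 4 genes passed the threshold that 38.3% of all genes tested passed. Pik3r4, the regulatory subunit VPS15, was at 0.11 ± 0.05 on the log2 scale (edgeR FDR 0.089), and Becn1, the scaffold Beclin 1, at 0.10 ± 0.04 (FDR 0.067). Both had every CHD4-APR library above every CTRL library and an unadjusted edgeR p under 0.05 (0.039 and 0.028). Becn1 passed the threshold with DESeq2 (FDR 0.045) and was at -0.08 after the length and GC correction. On the opposite strand, Cntd1 shares 43.9% of the exonic bases of Becn1. Atg14, which sends the complex to sites of autophagy, was at 0.06 (FDR 0.47), and Pik3c3, the lipid kinase VPS34, at 0.03 (FDR 0.74).

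Atg9a and Atg2b rose, 2 of the 5 genes (40%, against 38.3% of all genes tested) of the step that brings lipid to the membrane. Atg9a encodes the scramblase that seeds it and had 244, 239.9 and 254 CPM with CTRL and 271, 281 and 281 CPM with CHD4-APR. Atg2b encodes a lipid transfer protein and had 168, 178 and 174 CPM with CTRL and 209, 205 and 189 CPM with CHD4-APR. The groups did not overlap in either gene. Atg9a was higher by 0.17 ± 0.04 on the log2 scale (1.13-fold, edgeR FDR 0.0036), and it stayed called after the length and GC correction, at 0.22. Gm29253 on the same strand shares 31.8% of the exonic bases of Atg9a, but held at most 3 counts in any library. Atg2b was higher by 0.21 ± 0.05 (FDR 0.0020) and was at 0.04 (FDR 0.45) after the correction.

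The paralog Atg2a was at -0.11 (edgeR FDR 0.17) with overlapping groups, and passed the threshold without CTRL replicate 2 (-0.17, FDR 0.014). The log2 ratio of Atg2a to Atg2b was 0.01 ± 0.16 (SD, n = 3) with CTRL and -0.31 ± 0.06 with CHD4-APR, lower in all 3 CHD4-APR libraries than in any CTRL library (exact permutation p = 0.1, the smallest possible, adjusted 0.23). After the length and GC correction, the log2 fold change of Atg2a was -0.09 and that of Atg2b 0.04, closer together than before. Wipi1 and Wipi2 encode proteins that read the lipid made by the PI3K complex. Wipi1 was at -0.01 (FDR 0.91), and Wipi2 at -0.10 (FDR 0.084), or -0.20 (FDR 6.5e-04) after the length and GC correction. The ratio of Wipi1 to Wipi2 differed by 0.09 on the log2 scale, from -2.29 ± 0.04 with CTRL to -2.20 ± 0.02 with CHD4-APR (exact permutation p = 0.1, adjusted 0.23).

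Of the 9 conjugation genes tested, only Atg4d fell, and 0 rose (11.1% called, against 38.3% of all genes tested, 20.4% higher and 17.8% lower). Atg4d encodes a protease of the ATG4 family, which trims ATG8 proteins before they are attached and releases them afterwards. It had 168, 163 and 171 CPM with CTRL and 147, 147 and 143 CPM with CHD4-APR, with no overlap. Its log2 fold change was -0.20 ± 0.04 (0.87-fold, edgeR FDR 0.0013) and -0.21 after the length and GC correction, and it was called in all 17 alternative settings. Kri1 on the opposite strand shares 19.3% of the exonic bases of Atg4d and was lower by -0.20 (FDR 0.0077). Without strand, reads from these shared bases cannot be told apart.

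The other conjugation genes lay between -0.12 and 0.17 on the log2 scale with an edgeR FDR of at least 0.051. Atg3, the enzyme that hands ATG8 proteins to the lipid, was at -0.12 (FDR 0.051), and Atg4b, the most active ATG4 protease, at -0.11 (FDR 0.062). Atg7, the enzyme that activates ATG8 proteins and ATG12, was at -0.09 (FDR 0.32) and Atg4a, a further protease, at -0.06 (FDR 0.54). Atg5, which is joined to ATG12, was at 0.17 (FDR 0.12). Atg16l1, which places that conjugate on the membrane, was at 0.07 (FDR 0.29). Atg10, the enzyme that joins ATG12 to ATG5, was at 0.05 (FDR 0.75), and Atg12 itself at 0.01 (FDR 0.89). Atg3, Atg4b and Atg5 had no overlap between the groups, as had 49.9% of all genes.

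Corrected for length and GC content, 6 of the 9 conjugation genes were lower at edgeR FDR under 0.05, as were 16.1% of all genes tested. Atg3, at 40.1% GC, was then at -0.31 (FDR 1.2e-04), Atg4b at -0.22 (FDR 6.4e-04), Atg12 at -0.21, Atg4d at -0.21, Atg4a at -0.19 (FDR 0.038) and Atg16l1 at -0.16. The correction took as length all exonic bases of a gene, 9628 for Atg16l1 against 3751 in its longest transcript. For Atg4b these lengths were 8278 and 4186 bases. Whether the corrected calls depend on the length used was not tested. The calls of Atg3 and Atg4b also appeared with upper quartile scaling (FDR 0.028 and 0.035) and in a fit of protein-coding genes alone (FDR 0.030 and 0.036), and that of Atg4b without CTRL replicate 2 (FDR 0.035). Atg4a shares 2115 bases at 99.3% identity with the copy Atg4a-ps, which had a mean of 27.5 counts per library.

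Of the 5 ATG8 genes, Gabarap and Map1lc3b fell (40% called, against 38.3% of all genes tested, 20.4% higher and 17.8% lower). All 5 had a negative log2 fold change, between -0.10 and -0.24, with a median of -0.16. The median exonic length of the ATG8 genes was 2013 bases. For all genes tested in the length bin around 1959 bases, the median log2 fold change was -0.13. The part of length in these values was not tested. Gabarap had 694, 624 and 626 CPM with CTRL and 566, 555 and 569.7 CPM with CHD4-APR. Map1lc3b, which encodes LC3B, the usual marker of autophagosomes, had 391, 368 and 365 CPM with CTRL and 337, 331 and 335 CPM with CHD4-APR. Gabarapl2 had 109, 107 and 107 CPM with CTRL and 101, 98.8 and 99.9 CPM with CHD4-APR. In these 3 genes every CHD4-APR library was lower than every CTRL library.

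Gabarap was at -0.20 ± 0.05 on the log2 scale (0.87-fold, edgeR FDR 0.0029), and Map1lc3b at -0.16 ± 0.04 (0.894-fold, FDR 0.0062). The call of Map1lc3b was kept in all 17 alternative settings, with -0.22 after the length and GC correction, and that of Gabarap was lost after the correction (-0.11, FDR 0.051). Gabarapl2, at -0.10 ± 0.04 (FDR 0.064), was called after the correction (-0.14, FDR 0.011). Map1lc3a, which encodes LC3A, was at -0.24 ± 0.10 (FDR 0.056) and Gabarapl1 at -0.12 ± 0.05 (FDR 0.078), both with overlapping groups. Both passed the threshold without CTRL replicate 2 (FDR 0.0041 and 0.024) and with upper quartile scaling (FDR 0.041 and 0.045). After the length and GC correction, Map1lc3a was at -0.05 (FDR 0.71) and Gabarapl1 at 0.01 (FDR 0.94). Gabarapl2 and Map1lc3b have processed pseudogenes with near-identical stretches, of which Gm3724 had a mean of 259 and Gm6055 of 187 counts per library.

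The summed level of the 5 ATG8 genes per kilobase of exon was 549 ± 32.6 CPM per kilobase (SD, n = 3) with CTRL and 485 ± 5.95 with CHD4-APR. Gabarap made up 64.1% ± 0.257 of this sum with CTRL and 63.0% ± 0.508 with CHD4-APR, and Map1lc3b 9.09% ± 0.205 and 9.18% ± 0.030. The log2 ratio of Gabarap to Gabarapl2 was 2.59 ± 0.07 with CTRL and 2.49 ± 0.01 with CHD4-APR (exact permutation p = 0.1, adjusted 0.23). Gabarapl1 to Gabarapl2 differed by -0.01 (exact permutation p = 0.9), Map1lc3a to Map1lc3b by -0.07 (p = 0.7) and Atg4b to Atg4d by 0.09 (p = 0.2). With a smallest possible p of 0.1 none of the 7 paralog ratios could pass, so the test does not say whether they changed. After the length and GC correction the last 3 and Gabarap to Gabarapl2 had the opposite sign.

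Among the 4 receptors, Bnip3l and Nbr1 rose (50% called, against 38.3% of all genes tested, 20.4% higher and 17.8% lower). Bnip3l, the mitophagy receptor of maturing red cells, had 629, 673 and 655 CPM with CTRL and 733, 748 and 746 CPM with CHD4-APR. Nbr1, which encodes a receptor for ubiquitinated cargo, had 194, 201 and 207 CPM with CTRL and 231, 229 and 226 CPM with CHD4-APR. In both genes every CHD4-APR library was above every CTRL library. Bnip3l was higher by 0.19 ± 0.04 on the log2 scale (1.14-fold, edgeR FDR 0.0022) and Nbr1 by 0.19 ± 0.04 (1.14-fold, FDR 0.0020). After the length and GC correction neither was called, with Bnip3l at 0.01 (FDR 0.82) and Nbr1 at 0.07 (FDR 0.15). Bnip3l-ps, a transcribed pseudogene that shares 663 bases with Bnip3l at 99.2% identity, was at 0.11 (FDR 0.13).

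Sqstm1, which encodes the receptor p62, had 507, 453 and 468 CPM with CTRL and 508, 488 and 500.0 CPM with CHD4-APR. The groups overlapped through CTRL replicate 1. Sqstm1 was at 0.07 ± 0.05 on the log2 scale (edgeR FDR 0.28), at 0.11 (FDR 0.026) without CTRL replicate 1 and at 0.17 (FDR 0.0034) after the length and GC correction. Mrnip on the opposite strand shares 17.3% of the exonic bases of Sqstm1 and was lower by -0.30 (FDR 0.0065). Optn, the receptor optineurin, was at -0.04 (FDR 0.68), with overlapping groups.

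Of the 2 transcription factors, Foxo3 rose, where 38.3% of all genes tested were called, 20.4% higher and 17.8% lower. FOXO3 drives autophagy and antioxidant genes in erythroid precursors, and TFEB drives lysosomal and autophagy genes. Foxo3 had 264, 268 and 273 CPM with CTRL and 292, 319 and 294 CPM with CHD4-APR. Tfeb had 4.16, 4.56 and 5.19 CPM with CTRL and 3.80, 4.66 and 3.75 CPM with CHD4-APR. All CHD4-APR libraries were above all CTRL libraries for Foxo3, and CHD4-APR replicate 2 lay within the CTRL range for Tfeb. Foxo3 was higher by 0.17 ± 0.04 on the log2 scale (1.12-fold, edgeR FDR 0.0068) and by 0.14 after the length and GC correction, and its call was lost without CHD4-APR replicate 2 (0.13, FDR 0.069). Tfeb was at -0.19 ± 0.13 (FDR 0.27).

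Over all steps, the length and GC correction left 12 members called, 3 higher and 9 lower, where 11.7% of all genes were then called higher and 16.1% lower. Atg4d, Atg9a, Foxo3 and Map1lc3b were called in the same direction by both fits. Another 7 calls were lost, 8 members were called only after the correction, Sqstm1 higher and Atg3, Atg4a, Atg4b, Atg12, Atg16l1, Gabarapl2 and Wipi2 lower, and 7 members changed sign. The median log2 fold change of the members was then -0.05 and that of all genes -0.02.

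**Figure D3:**
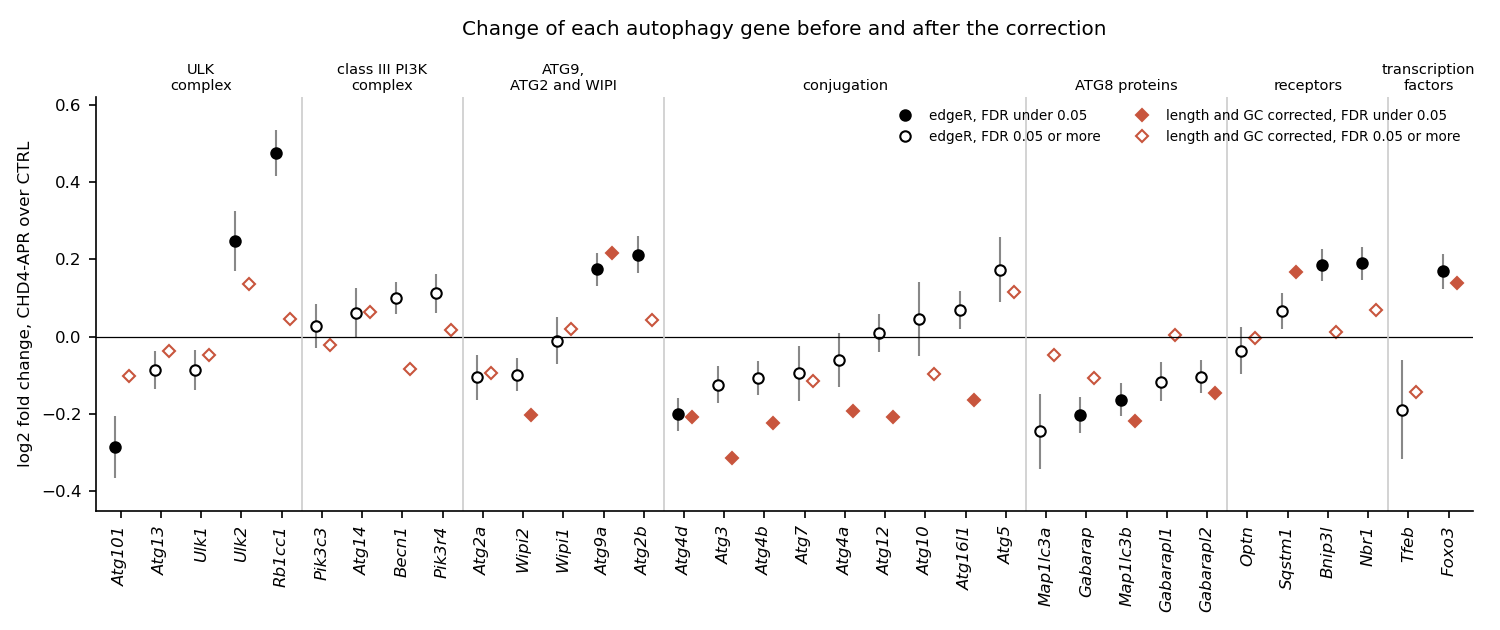
Log2 fold change of CHD4-APR over CTRL of the 34 autophagy genes tested, by step, from edgeR (circles, bars give the SE) and after the length and GC correction (diamonds); filled symbols have an FDR under 0.05 in that fit. Rb1cc1 moves from 0.48 to 0.05 and Atg3 from -0.12 to -0.31, while Atg4d and Atg9a stay filled.

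Levels per length covered a wide range, with ATG8 genes and receptors at the top. With CTRL, Gabarap was highest at 351 ± 21.7 CPM per kilobase of exon (SD, n = 3), followed by Bnip3l at 169 ± 5.64, Sqstm1 at 142 ± 8.36, Gabarapl1 at 81.6 ± 5.58, Map1lc3b at 49.8 ± 1.90, Gabarapl2 at 46.2 ± 0.474 and Atg9a at 42.7 ± 1.24. Then came Atg4b, Foxo3, Nbr1, Becn1, Atg4d, Atg2a, Map1lc3a, Atg13, Atg3, Ulk1, Optn, Atg101, Atg2b, Wipi2, Pik3c3, Atg16l1, Atg14, Atg12, Wipi1, Atg4a, Rb1cc1, Atg5, Pik3r4, Atg10, Atg7, Ulk2 and Tfeb, from 36.8 ± 1.06 for Atg4b to 2.68 ± 0.171 for Ulk2 and 0.818 ± 0.0923 for Tfeb. Of the 33 neighbouring pairs in this order, 13 were closer than the sum of their SDs, among them Atg4b and Foxo3, each pair in the run from Atg4d to Optn, and the pairs in the run from Atg101 to Wipi2. With CHD4-APR the highest 4 were in the same order. The order depended on the length used: per kilobase of the longest transcript, Map1lc3b (90.5) and Gabarapl1 (90.3) were next after Sqstm1, and Atg4b (72.7) came before Gabarapl2 (64.1) and Atg9a (58.4). The median member was at 16.4 CPM per kilobase. By step, the medians were 85.5 for the receptors, 49.8 for the ATG8 genes, 18.1 for the transcription factors, 12.9 for both the ULK complex and the ATG9, ATG2 and WIPI genes, 8.13 for the class III PI3K complex and 7.08 for conjugation. These medians rest on few genes. That of the transcription factors is the midpoint of Foxo3 (35.4) and Tfeb (0.818), and the receptors ran from 15.7 to 169.

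**Figure D4:**
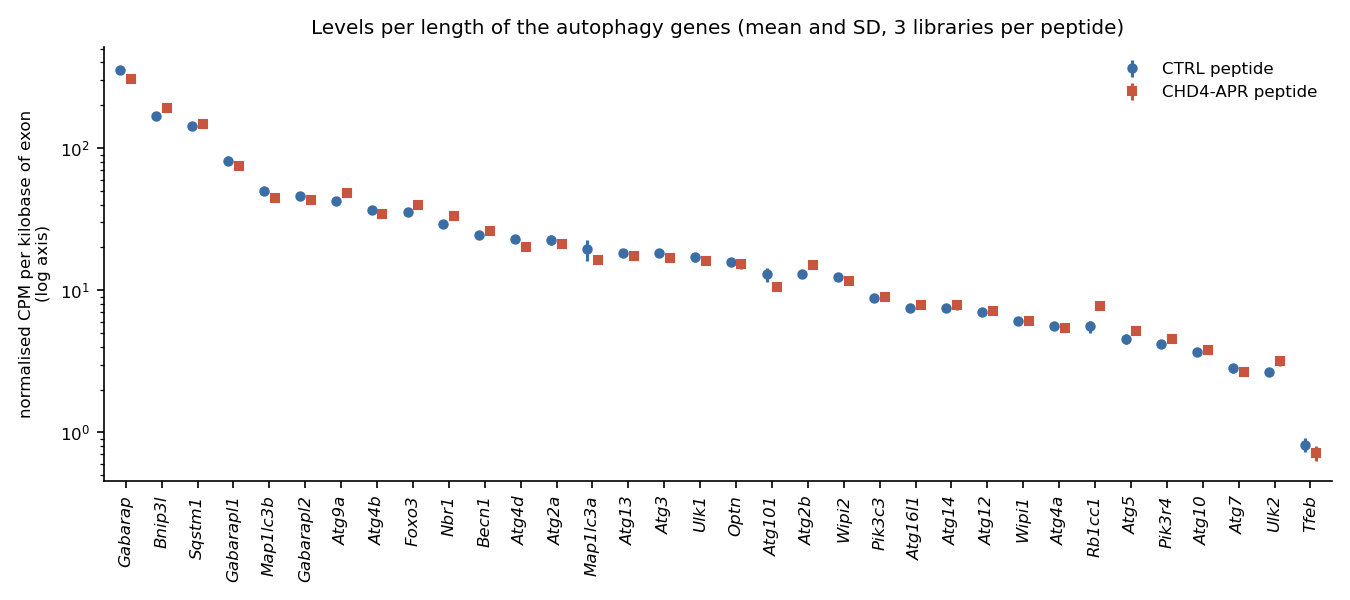
Mean level of each autophagy gene in normalised CPM per kilobase of exon (log axis) with CTRL (circles) and CHD4-APR (squares), 3 libraries each, bars giving the SD. Genes are ordered by the CTRL level, from Gabarap at 351 to Tfeb at 0.818.

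The rest of the pathway was read from 6 further lists of related genes, fitted in the same way, to be read beside the 38.3% of all genes tested that passed the threshold, 20.4% higher and 17.8% lower. Of 17 other mitophagy genes tested, 4 rose and 5 fell (52.9%), with a median log2 fold change of -0.01. After the length and GC correction 1 was called higher and 5 lower, and without CHD4-APR replicate 1 or replicate 2 the 9 calls became 5. Bnip3, the paralog of Bnip3l and like it a receptor on the outer mitochondrial membrane, fell, with 50.8, 56.3 and 53.7 CPM in the CTRL and 26.6, 41.5 and 30.1 CPM in the CHD4-APR libraries. Its log2 fold change was -0.71 ± 0.11 (edgeR FDR 9.6e-05), and -0.85 after the length and GC correction. Fkbp8, a further receptor of that membrane, and Calcoco1, a cargo receptor, fell by 0.20 and 0.22 on the log2 scale, and Fkbp8 was at -0.11 (FDR 0.032) after the correction. Tbk1, the kinase that acts on several receptors, and Pgam5, a mitochondrial phosphatase, rose by 0.20 each. Tbk1 was no longer called after the length and GC correction (0.12, FDR 0.086), and Pgam5 lost its call in 5 settings, with FDRs of 0.059 to 0.14.

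Of 13 other genes of the core machinery, 0 rose and 1 fell (7.69%), with a median of 0.02 on the log2 scale. The count was 4 (1 higher, 3 lower) after the length and GC correction, and 3 without CTRL replicate 2, 2 higher and 1 lower. With the replicate block it was 2, 1 in each direction. DESeq2 called 0, and gave the gene that fell no adjusted p. The gene was Atg9b, the paralog of Atg9a, at -1.23 ± 0.35 (edgeR FDR 0.011), from 24, 34 and 26 counts with CTRL and 17, 7 and 12 with CHD4-APR. Without CHD4-APR replicate 2 its call was lost (-0.98, FDR 0.066).

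Of 14 genes for fusion of the autophagosome with the lysosome, 2 rose and 3 fell (35.7%), with a median of -0.05. Epg5, a tether, rose by 0.25 (edgeR FDR 5.9e-04), or 0.12 (FDR 0.023) after the length and GC correction, and Stx17, the SNARE of the autophagosome, by 0.24 (FDR 0.0024). Vamp8, the SNARE on the lysosome, fell by 0.30 (FDR 1.9e-04), and Vps16 and Tecpr1, which tether the membranes, by 0.20 and 0.19. After the correction Stx17 was no longer called (0.04, FDR 0.57).

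Of 31 genes of the lysosome tested, 2 rose and 11 fell (41.9%), with a median log2 fold change of -0.09. The 13 calls became 7, 2 higher and 5 lower, without CTRL replicate 3, and 8, 2 higher and 6 lower, without CTRL replicate 1, CHD4-APR replicate 2 or CHD4-APR replicate 3. Ctsa and Ctsd, lysosomal proteases, fell by 0.32 (edgeR FDR 6.4e-04) and 0.21 (FDR 0.0073), and Atp6v1e1, a subunit of the proton pump, by 0.20. Ctsd was at -0.06 (FDR 0.37) after the length and GC correction. Lamp2, a membrane protein of the lysosome, rose by 0.49 (FDR 1.1e-05), or 0.11 (FDR 0.043) after the correction, and Atp6v1a, another pump subunit, by 0.33 (FDR 6.1e-05), or 0.16 (FDR 0.0049).

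Of 28 genes of mTORC1 and AMPK, the kinases that restrain and start autophagy, 7 rose and 8 fell (53.6%), with a median log2 fold change of 0.00. Fnip1 and Fnip2, partners of folliculin, rose by 0.73 (edgeR FDR 8.9e-07) and 0.33, or 0.40 and 0.21 after the length and GC correction. Prkaa1, a catalytic subunit of AMPK, rose by 0.37 (FDR 0.0011), or 0.14 (FDR 0.11) after the correction. Lamtor4, Lamtor5 and Lamtor1, subunits of the Ragulator that holds mTORC1 at the lysosome, fell by 0.31, 0.26 and 0.25, and after the correction Lamtor4 was at -0.11 (FDR 0.20) and Lamtor5 at -0.15 (FDR 0.021). Of the other FOXO and MiT/TFE factors, Foxo4 was at -0.10 (FDR 0.13), Tfe3 at -0.10 (FDR 0.10) and Zkscan3, a repressor of autophagy genes, at 0.05 (FDR 0.47), and 0 of these 3 passed the threshold. In that list 1 was called lower after the length and GC correction, 2 with the replicate block as well, and 1 lower without CTRL replicate 2. Calcoco2, Hexa, Prkaa2, Prkag2, Prkag3, Rragb, Sesn3, Foxo1, Foxo6, Mitf and Tfec were listed at 0 in every library, and Becn2 was not analysed here.

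**Figure D5:**
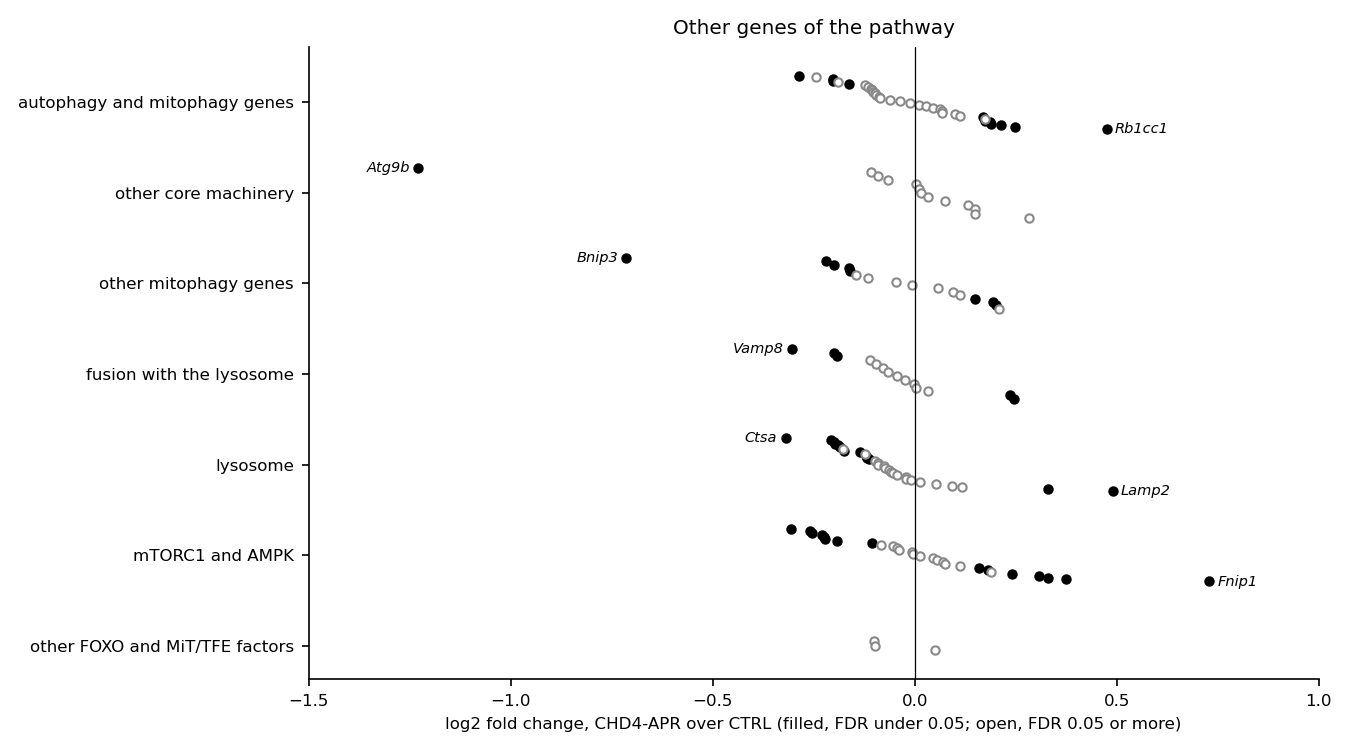
Log2 fold change of CHD4-APR over CTRL of the genes tested in the autophagy list and in 6 further lists, 1 point a gene (filled, FDR under 0.05; open, FDR 0.05 or more). Bnip3 at -0.71, Fnip1 at 0.73 and the low-count gene Atg9b at -1.23 lie furthest outside the range of the autophagy list. That range runs from -0.29 to 0.48, and others, among them Lamp2 at 0.49 and Ctsa at -0.32, lie just outside it.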

How the data were processed

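The deposited values are raw counts, made by the authors with cutadapt (trimming), STAR 2.7.10a (alignment to GRCm38) and featureCounts (reads per Ensembl gene). Strand and multi-mapping settings were not given in the sources used here. The study's own test was DESeq2. The table holds 2 further columns that belong to no sample of this series and were not used. Genes were named and measured with GENCODE M21. Counts were filtered by filterByExpr, scaled by TMM and compared by the quasi-likelihood test of edgeR 4.0.16 (R 4.3.3), with no block for replicate number, at a threshold of 0.05 after Benjamini-Hochberg adjustment over all 12722 genes. SEs were derived from the fold change and its F statistic. CPM are TMM-normalised, and paralog ratios used a prior count of 0.5. Length and GC offsets came from smooths of each library (mgcv 1.9.3, basis size 8) and covered 99.7% of the genes tested. They used the length of all exonic bases and the GC content of the longest transcript, and no other length was tried. Alternatives included limma-voom 3.58.1, DESeq2 1.42.0, other scalings and filters, a replicate block and leaving out each library. Members and lists were set by gene function, but they and the tests were chosen with earlier results of these data known. Values per library are given for the 10 called members of smallest FDR, for Ulk1, Map1lc3b, Gabarapl2, Bnip3l, Sqstm1, Foxo3 and Tfeb, and also for Ulk2 and Bnip3, which were added after their values were seen. Of each further list, up to 3 called genes per direction with the largest change are named. Some further results of these lists and of the markers are neither reported nor plotted here, although counts and sums include them.

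Deviations from the group means of libraries with the same replicate number correlated at 0.07, 0.06 and -0.04, so the numbers were not taken to pair the libraries.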

Additional observations from a re-analysis of the deposited data

How the results depend on the processing

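The count of 11 members called was 17 (7 higher, 10 lower) with upper quartile scaling, 16 (7 higher, 9 lower) with protein-coding genes alone, 10 to 16 when a library was left out (16, with 9 lower, without CTRL replicate 2), 12 (3 higher, 9 lower) after the length and GC correction and 10 to 12 under the other settings without a block. With the replicate number as a block it was 13 (7 higher, 6 lower), or 13 (3 higher, 10 lower) with block and correction together. The block, whose numbers do not pair the libraries, moved the calls in other core machinery from 1 to 2, and after the correction from 4 to 5. In the other FOXO and MiT/TFE factors it left 0, and after the correction moved 1 to 2. The count of 4871 genes called, 2601 higher and 2270 lower, was 3540 (1489 higher, 2051 lower) after the correction, 3250 at an FDR under 0.01 and 3703 to 4928 when a library was left out. The 43 calls in the further lists became 29 at an FDR under 0.01 and 30 to 48 when a library was left out. The members' median log2 fold change of -0.02 lay between -0.0389 and 0.0113 when a library was left out, the latter without CHD4-APR replicate 2. The median level was 22.4 CPM per kilobase with the longest transcript. Of 578 repeats of a member's fold change, 506 kept direction and side of the threshold. Atg4d, Atg9a and Map1lc3b kept their call in all 17 settings.

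The members and ratios below changed sign, and none of them was called in the uncorrected edgeR fit. Atg12 and Atg16l1 were called with the opposite sign after the length and GC correction. After the length and GC correction, alone and with the block, Becn1 was at -0.0834 and -0.0834, Pik3c3 at -0.0220 and -0.0233, Wipi1 at 0.0204 and 0.0200, Atg10 at -0.0969 and -0.0970, Atg12 at -0.2071 and -0.2083, Atg16l1 at -0.1636 and -0.1643 and Gabarapl1 at 0.0056 and 0.0062. Atg12 was at -0.0059 with upper quartile scaling. When a library was left out, Pik3c3 ran from -0.0095 to 0.0616, Wipi1 from -0.0379 to 0.0202, Atg12 from -0.0071 to 0.0429 and Optn from -0.0810 to 0.0235. The correction moved the ratio of Gabarapl1 to Gabarapl2 to 0.1506, Gabarap to Gabarapl2 to 0.0377, Map1lc3a to Map1lc3b to 0.1733 and Atg4b to Atg4d to -0.0140, and when a library was left out, Gabarapl1 to Gabarapl2 ran from -0.0463 to 0.0356 and Map1lc3a to Map1lc3b from -0.1727 to 0.0214. The cause of these changes was not tested. SEs ran up to 0.13 for Tfeb, the member with the lowest level, against 0.05 for Gabarap and 0.04 for Bnip3l, the highest 2.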
